A study of Haemaphysalis flava with 2 samples.

Results

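Serpins were examined in salivary glands of the ixodid tick Haemaphysalis flava, which feeds on blood, in 1 RNA sequencing library from engorged ticks and 1 from semi-engorged ticks. They were taken as all assembled contigs whose best-matching protein has serpin, antitrypsin or antithrombin in its name, which gave 21 of 54357 contigs. The 2 libraries are called engorged and semi-engorged glands below. All 21 carried the word serpin, none matched through the other names, and every best match was a tick protein. The series text speaks of 100 glands, with 50 ticks at each stage, and the labels give no strain, sex or feeding time and do not say how glands were combined. The engorged library held 57892372 reads on contigs and the semi-engorged library 54039984. With 1 library per stage no difference below has a replicate check, no p-value was computed, and all intervals given cover counting error only.

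Serpins are protease inhibitors that work as bait. A loop near the end of the protein is cut by the target protease, after which the serpin changes shape and holds the enzyme in a covalent complex. Vertebrates control clotting and inflammation with serpins, and ticks are known to secrete serpins with saliva into the bite as well as to carry others in their own haemolymph and tissues. In a salivary gland library both kinds can be present, and the description of a contig does not tell them apart.

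As a group, serpin contigs were more abundant in the engorged library. They held 26025 reads in the engorged library, or 0.0450% of its reads (Wilson 95% interval 0.0444% to 0.0455%), against 9388 in the semi-engorged library, or 0.0174% (0.0170% to 0.0177%). The ratio of the shares was 2.59 (exact 95% interval 2.53 to 2.65). In CPM (counts per 1000000 library reads) the sum was 449.5 in engorged and 173.7 in semi-engorged glands. The RNA came from dissected glands of many cell types, so more cells with serpin RNA and more serpin RNA per cell cannot be told apart.

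A contig was counted as at least 2-fold higher in a library when its log2 fold, engorged over semi-engorged after 1 was added to each CPM, was 1 or more, or -1 or less. By this rule 10 of 21 serpin contigs (47.6%) were higher in the engorged library, against 13.0% of all 47965 contigs with at least 20 reads over both libraries and 15.4% of those with a protein description. In the other direction 0 of 21 serpin contigs were higher in the semi-engorged library, against 15.5% of all such contigs and 16.6% of the described ones. A contig cannot meet this below 1 CPM in the higher library, a level 19 of the 21 serpin contigs reached. Among all 31565 contigs that reached it, 19.8% were higher in engorged and 23.5% in semi-engorged glands. All 21 serpin contigs passed the filter of 20 reads, and their median log2 fold was 0.95, against -0.05 for all tested contigs. Over the 17032 contigs with 100 or more reads in each library, the median log2 ratio was 0.23. With that shift set to 0, 9 serpin contigs (42.9%) were higher in engorged and 0 in semi-engorged glands. Of all tested contigs, 10.1% were then higher in engorged and 17.1% in semi-engorged glands. The serpin median at this setting was 0.80, against -0.15 for all tested contigs. With a pseudocount of 10 the serpin median was 0.17, and with only the most abundant contig of each best-matching protein it was 0.48.

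**Figure D1:**
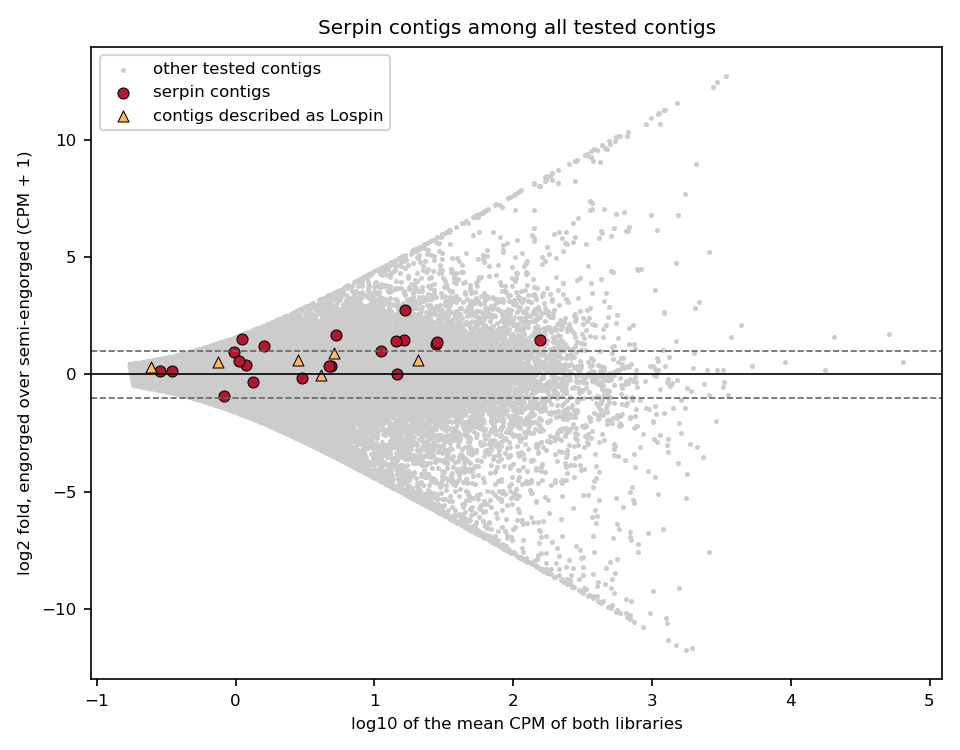
The log2 fold of CPM + 1, engorged over semi-engorged, is plotted against the log10 of the mean CPM of both libraries for every tested contig, with dashed lines at log2 folds of 1 and -1. The 10 serpin contigs above the upper line lie among contigs that reach much larger folds in both directions, and no serpin contig lies below the lower line.

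The 21 contigs matched 14 different proteins of 5 tick species, so contigs of 1 protein may be pieces or variants of 1 transcript and are not independent. Contig lengths, derived from reads and RPKM, a value that corrects reads for contig length and depth, lay between 321 and 1594 bases, the median being 929, against a median of 837 for all described contigs. The file holds no contig sequence, so none is shown. Rhipicephalus pulchellus gave the best match of 11 contigs, all named tick salivary serpin. Haemaphysalis longicornis, of the same genus as the ticks studied, and Ixodes scapularis gave 4 each, and Amblyomma variegatum and Rhipicephalus haemaphysaloides 1 each.

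Most serpin reads came from 3 contigs that share 1 best match, a tick salivary serpin of Rhipicephalus pulchellus (UniProt L7LTU1). Together they held 17951 reads in the engorged library, 69.0% of its serpin reads, and 6135 in the semi-engorged library, 65.3% of its serpin reads. Their summed CPM was 2.73-fold higher in engorged glands (2.65 to 2.81). The most abundant serpin, contig_1782, had 13300 reads and 227.7 RPKM in engorged glands, against 4458 reads and 81.8 RPKM in semi-engorged glands. By RPKM it ranked 459 of all contigs in engorged glands and 1625 in semi-engorged glands. It was 2.78-fold higher in engorged glands (2.69 to 2.88).

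The other two contigs of this protein stood at lower levels but at much the same ratio. Contig_4327 had 2368 reads and 44.0 RPKM in engorged glands, against 829 reads and 16.5 RPKM in semi-engorged glands, a ratio of 2.67 (2.46 to 2.89). Contig_2853 had 2283 reads and 24.7 RPKM in engorged glands, against 848 reads and 9.84 RPKM in semi-engorged glands, a ratio of 2.51 (2.32 to 2.72). The intervals of all 3 contigs overlap. Without contig_1782 the remaining 20 serpin contigs held 12725 reads in engorged glands against 4930 in semi-engorged glands, a ratio of 2.41 (2.33 to 2.49). Without all 3 contigs the other 18 held 8074 reads in engorged against 3253 in semi-engorged glands, a ratio of 2.32 (2.22 to 2.41), so the difference in the summed reads was not set by this protein alone.

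**Figure D2:**
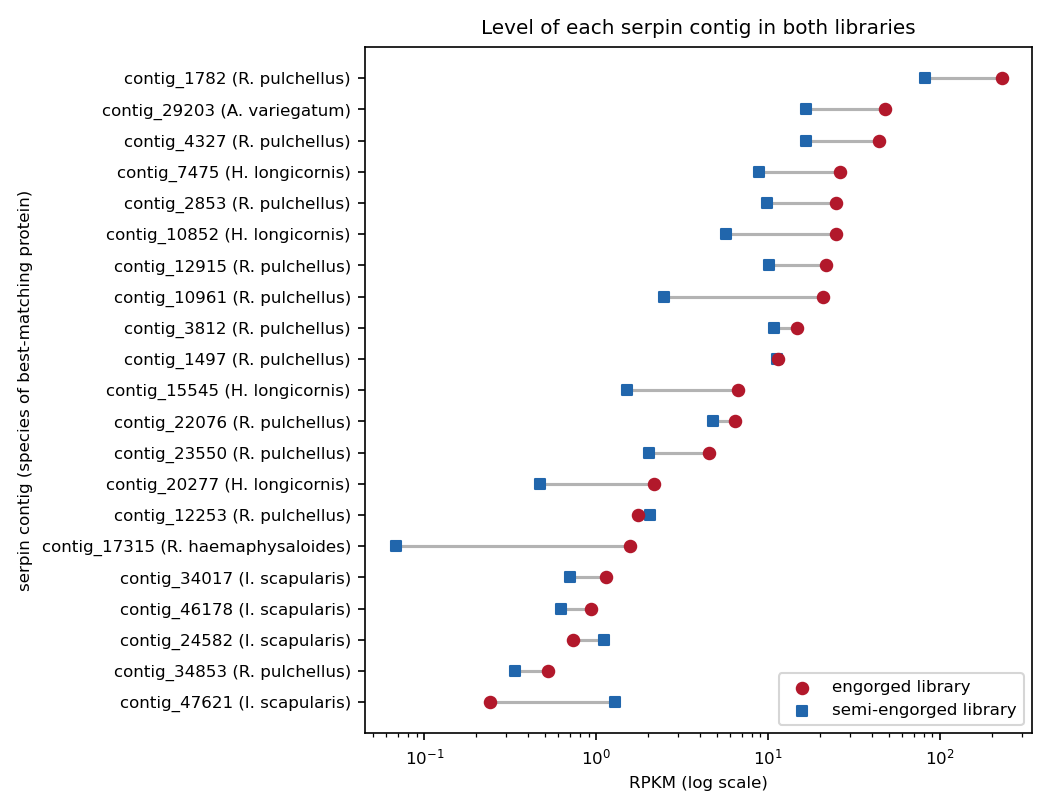
RPKM of each of the 21 serpin contigs on a log axis, with circles for the engorged library and squares for the semi-engorged library, ordered by the engorged value and labelled with the species of the best match. Contig_1782 stands apart at 227.7 RPKM in engorged and 81.8 in semi-engorged glands, and the circle lies right of the square in 18 contigs.

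Serpin-2 of Haemaphysalis longicornis (HLS2, UniProt Q75Q63), the closest named relative by genus, was the best match of 4 contigs. In Haemaphysalis longicornis, HLS2 is known as a serpin of the haemolymph. The 4 contigs held 2157 reads in engorged glands and 603 in semi-engorged glands, and their summed CPM was 3.34-fold higher in engorged glands (3.05 to 3.66). Contig_7475, the longest at 937 bases, had 1418 reads and 26.1 RPKM in engorged glands, against 446 reads and 8.81 RPKM in semi-engorged glands. Its ratio was 2.97 (2.67 to 3.31).

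The 3 shorter Serpin-2 contigs had higher ratios, all between 4 and 5. Contig_10852 had 494 reads in engorged and 106 in semi-engorged glands, a ratio of 4.35 (3.52 to 5.42) whose interval lies above that of contig_7475. Contig_15545 had 152 reads in engorged and 32 in semi-engorged glands, a ratio of 4.43 (3.01 to 6.71). Contig_20277 had 93 reads in engorged and 19 in semi-engorged glands, a ratio of 4.57 (2.77 to 7.93), and its log2 fold with the added 1 was 0.95, just under the threshold. All 4 contigs thus stood on the engorged side, and 3 of them were at least 2-fold higher by the rule.

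Because HLS2 is known from haemolymph, markers of haemocytes and fat body were set beside it. Of 37 such contigs tested, 4 were higher in engorged and 0 in semi-engorged glands, with a median log2 fold of 0.18. With the shift set to 0, 2 were higher in engorged and 3 in semi-engorged glands, and the median was -0.02. They took 0.211% of the reads in both libraries, and their ratio of shares was 0.851 with the shift set to 0 and 1.17 without the 50 most abundant contigs in the totals. The most abundant were the vitellogenin contigs contig_195, with 64950 reads in engorged and 52238 in semi-engorged glands, and contig_1122, with 19685 in engorged and 23395 in semi-engorged glands. Of the 43 contigs on this list, 4 had no read in the engorged library and 1 none in the semi-engorged library. The part of these cells in the Serpin-2 result was not tested.

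Another 2 contigs carried the number 2, from Serpin 2 of Ixodes scapularis (UniProt B7PGP4), but numbers are given separately in each species and need not mark the same gene. Contig_24582 had 62 reads in engorged and 87 in semi-engorged glands, a ratio of 0.665 (0.472 to 0.932). Contig_46178 had 24 reads in engorged and 15 in semi-engorged glands, a ratio of 1.49 (0.752 to 3.06). Summed, both gave 86 reads in engorged and 102 in semi-engorged glands, a ratio of 0.787 (0.584 to 1.06) that is not separated from 1 at this depth. The interval lies below that of the Haemaphysalis longicornis Serpin-2 contigs.

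The only contig described as Serpin 1, contig_17315, matched a protein of Rhipicephalus haemaphysaloides. It had 124 reads in engorged and 5 in semi-engorged glands, a ratio of 23.1 (9.66 to 72.5), which was the highest ratio of the 21 serpin contigs. Its level was low in both libraries, at 1.58 RPKM in engorged and 0.0681 RPKM in semi-engorged glands, and its log2 fold was 0.27 with a pseudocount of 10.

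The highest log2 fold among serpins, 2.76, belonged to contig_10961, a contig of 1436 bases matching another tick salivary serpin of Rhipicephalus pulchellus (UniProt L7MJ02). It had 1724 reads and 20.7 RPKM in engorged glands, against 191 reads and 2.46 RPKM in semi-engorged glands. The ratio was 8.43 (7.25 to 9.84), above the intervals of contig_1782, contig_2853, contig_4327, contig_7475 and contig_29203. With the pseudocount of the rule, contig_10961 was the only serpin contig that reached a log2 fold of 2. Of all tested contigs, 3.68% passed this threshold on the engorged side. This ranking depends on the pseudocount. With a pseudocount of 0.1, contig_17315 stood at 3.54, contig_10961 at 3.04 and contig_10852 at 2.07. With a pseudocount of 10, contig_10961 stood at 1.56 and contig_17315 at 0.27.

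The contig matching a serpin fragment of Amblyomma variegatum, contig_29203, was the second highest serpin by RPKM in both libraries. It had 1236 reads and 47.4 RPKM in engorged glands, against 403 reads and 16.6 RPKM in semi-engorged glands. Its ratio of 2.86 (2.56 to 3.21) was close to that of contig_1782.

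Not all tick salivary serpin contigs differed in this way. For 2 contigs sharing 1 protein (UniProt L7MHE8), contig_12915 had 888 reads in engorged and 383 in semi-engorged glands, a ratio of 2.16 (1.92 to 2.45). Contig_22076 had 314 reads in engorged and 218 in semi-engorged glands, a ratio of 1.34 (1.13 to 1.61), and these intervals do not overlap. Contig_12915 was the member nearest to the threshold from above, with a log2 fold of 1.01, or 0.80 with the shift set to 0.

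Other members of moderate abundance had ratios nearer to 1. Contig_1497, of 1295 bases, had 855 reads and 11.4 RPKM in engorged glands, against 781 reads and 11.2 RPKM in semi-engorged glands. Its ratio of 1.02 (0.926 to 1.13) leaves no difference larger than counting error. Contig_12253, of 1587 bases, had 161 reads in engorged and 175 in semi-engorged glands, a ratio of 0.859 (0.689 to 1.07). Contig_3812 had 324 reads in engorged and 221 in semi-engorged glands, a ratio of 1.37 (1.15 to 1.63). That interval lies above 1 when CPM is scaled by library totals and was not computed under other scalings. Its log2 fold was 0.37, or 0.18 with the shift set to 0. The log2 folds of contig_1497 and contig_12253 took either sign across the scalings, so neither is given a direction.

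Below 100 reads in each library lay 7 serpin contigs, with 15 to 93 reads in engorged and 12 to 87 in semi-engorged glands, and by the rule none of them was at least 2-fold higher in either. Of those not yet named, contig_23550 had 84 reads in engorged and 35 in semi-engorged glands, a ratio of 2.24 (1.49 to 3.43). Contig_34017 had 86 in engorged and 49 in semi-engorged glands, a ratio of 1.64 (1.14 to 2.38), and contig_34853 had 20 in engorged and 12 in semi-engorged glands, a ratio of 1.56 (0.724 to 3.49). Contig_47621, which matched a serpin of Ixodes scapularis, was the outermost on the semi-engorged side, with 15 reads in engorged and 75 in semi-engorged glands. Its ratio was 0.187 (0.0996 to 0.328), and its log2 fold with the added 1 was -0.92. With a pseudocount of 0.1, with no pseudocount, or with totals that leave out the 50 most abundant contigs, this contig was the 1 serpin at least 2-fold higher in semi-engorged glands.

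**Figure D3:**
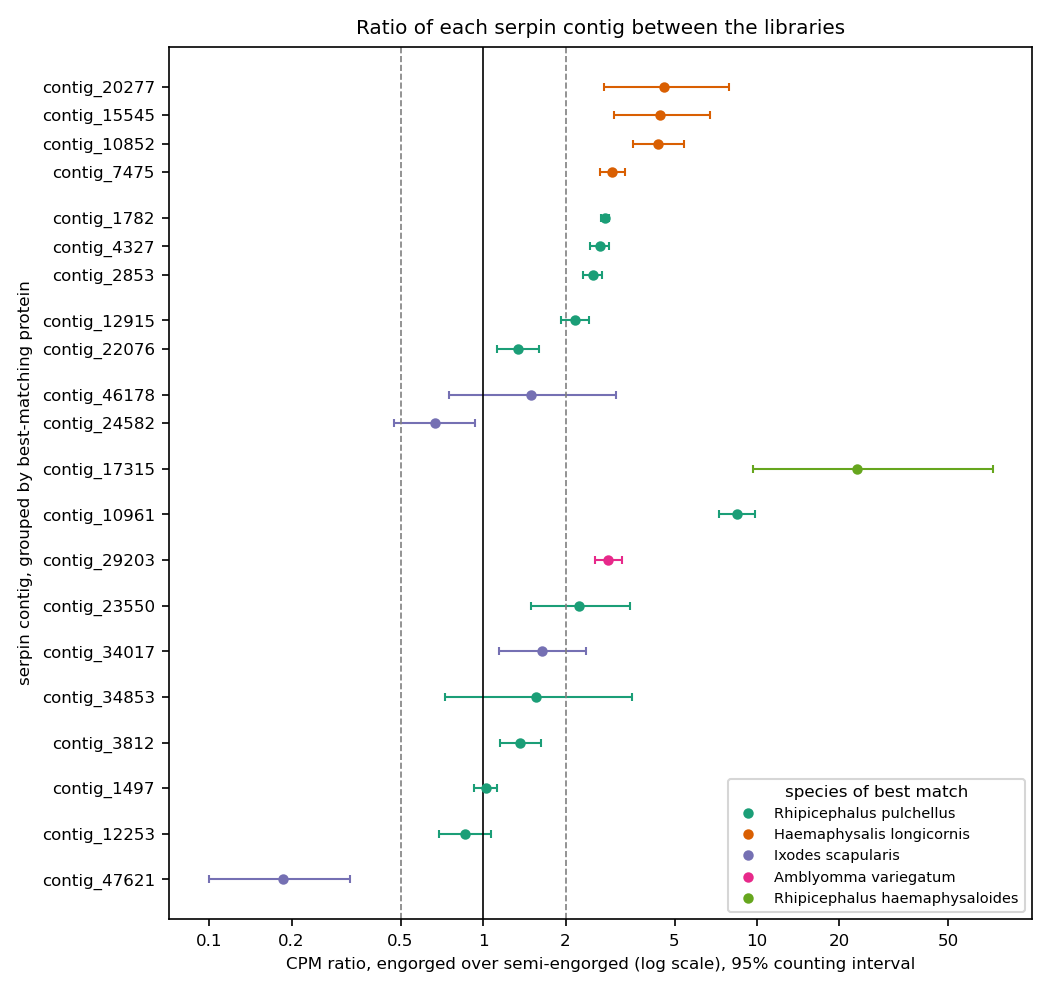
The CPM ratio, engorged over semi-engorged, of each serpin contig is drawn on a log axis with its exact 95% counting interval, grouped by best-matching protein and coloured by the species of that protein. The solid line marks equal levels and the dashed lines 2-fold differences. The 4 Haemaphysalis longicornis Serpin-2 contigs and the 3 contigs of the most abundant protein lie right of the upper 2-fold line. The 4 Ixodes scapularis contigs lie on both sides of equal levels, and contig_47621, at 0.187, lies left of the lower 2-fold line.

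Counted over contigs with CPM scaled by library totals, 15 of the 21 ratios had an interval above 1 and 2 an interval below 1. The other 4 had an interval that includes 1. The same count was not made over all tested contigs, so these numbers have no background and are not read as a result about serpins. Nor was it made under the other scalings, where intervals near 1 can change side. At the library-total scaling, both contigs with an interval below 1, contig_24582 and contig_47621, had a best match from Ixodes scapularis. By species, the 4 Ixodes scapularis matches held 187 reads in engorged and 226 in semi-engorged glands, a ratio of 0.772 (0.633 to 0.942), or 0.657 to 0.902 under the other scalings. This rested on contig_47621: without it the other 3 held 172 reads in engorged and 151 in semi-engorged glands, a ratio of 1.06 (0.850 to 1.33). The 11 Rhipicephalus pulchellus matches held 22321 reads in engorged and 8151 in semi-engorged glands, a ratio of 2.56 (2.49 to 2.62), with 5 contigs at least 2-fold higher in engorged glands. The Ixodes scapularis matches took 0.719% of the serpin reads in engorged and 2.41% in semi-engorged glands, so the summed serpin ratio says little about them.

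Contigs named as serpins in other words fall outside the rule and were looked at beside it. Lospin is the name given to serpins of Amblyomma americanum, and 6 contigs were described as Lospin 1 or Lospin 7. They held 2373 reads in engorged and 1408 in semi-engorged glands, a ratio of 1.57. By the rule with 1 added to CPM, 0 of 6 were at least 2-fold higher in either library, though some CPM ratios exceeded 2. The most abundant, contig_13608, had 1440 reads in engorged and 866 in semi-engorged glands, a ratio of 1.55 (1.43 to 1.69). Contig_17534 had 405 in engorged and 178 in semi-engorged glands, a ratio of 2.12 (1.78 to 2.55). Contig_17535 had 236 in engorged and 224 in semi-engorged glands, a ratio of 0.983 (0.816 to 1.19). Contig_32173 had 209 in engorged and 110 in semi-engorged glands, a ratio of 1.77 (1.40 to 2.26). At lower counts, contig_23551 had 61 in engorged and 24 in semi-engorged glands, a ratio of 2.37 (1.46 to 3.98). For contig_44626 the counts were 22 in engorged and 6 in semi-engorged glands, a ratio of 3.42 (1.35 to 10.3). With Lospin contigs added, 10 of 27 were higher in engorged and 0 in semi-engorged glands, and the median log2 fold was 0.60. Another 2 contigs, described as leukocyte elastase inhibitor, a vertebrate serpin, with best matches from bats, held 2 reads in engorged and 23 in semi-engorged glands.

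A further 12 contigs were described only as serine protease or proteinase inhibitor, a name that does not say whether the protein is a serpin. They were divided, with 2 of 10 tested higher in engorged and 4 in semi-engorged glands. Contig_50185 had 0 reads in engorged and 2036 in semi-engorged glands and was at least 727-fold lower in the engorged library, with 3 reads taken as the floor. Contig_51315 had 1414 reads in engorged and 300 in semi-engorged glands, a ratio of 4.40. Contig_50185 and contig_51315 belong to the 5633 contigs numbered 50000 or higher, of which 3715 had no engorged read and 0 no semi-engorged read. No serpin contig is among those, the highest serpin number being 47621. Without these contigs the background was 14.1% higher in engorged and 13.7% in semi-engorged glands.

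Contigs named as serine proteases, the class of enzyme that most serpins act on, and contigs named as other inhibitors or thioester proteins were described for comparison. Which enzymes these serpins act on was not tested. Of 30 serine protease contigs tested, 6 were higher in engorged and 3 in semi-engorged glands, with a median log2 fold of -0.09 whose sign turned with the scaling. One of the 3 is a word match to a transcription factor. A tick serine protease, contig_6403, had 7341 reads in engorged and 123 in semi-engorged glands, a ratio of 55.7 (46.6 to 67.1). A contig matching stubble, a membrane serine protease in Drosophila (First_Contig127), had 5392 in engorged and 9500 in semi-engorged glands. On the semi-engorged side the outermost was contig_47968, with 11 reads in engorged and 104 in semi-engorged glands.

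The other serine protease inhibitors spread far more widely than serpins. They were listed by name, and the list includes the 12 contigs described only as serine protease or proteinase inhibitor, some of which may be serpins. Of 93 tested, 22 were higher in engorged and 45 in semi-engorged glands, with log2 folds from -9.44 to 10.17 and a median of -0.91, whereas serpins ran from -0.92 to 2.76. In summed reads they held 418328 in engorged and 433544 in semi-engorged glands, many more than the serpins in either. Of the 96 contigs on this list, 28 had no read in the engorged library and 11 none in the semi-engorged library, while every serpin contig had reads in both. This list includes 23 contigs numbered 50000 or higher.

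Macroglobulins, broad inhibitors that trap proteases in a cage, and thioester proteins were listed together by name and spread less widely. Of 15 tested, 4 were higher in engorged and 0 in semi-engorged glands, with a median of 0.47, and 1 of the 15 is a word match to a thioesterase. Alpha-macroglobulin (First_Contig334) was 3.37-fold higher in engorged glands (2.96 to 3.85), with 1055 reads in engorged and 292 in semi-engorged glands. The dominant thioester protein, contig_47, had 200869 reads in engorged and 165735 in semi-engorged glands, a ratio of 1.13 (1.12 to 1.14) with library totals. For the whole list the ratio of shares was 1.17, and it depended on the scaling. It was 0.998 with the shift set to 0 and 1.37 without the 50 most abundant contigs in the totals. No test of a difference between these lists and serpins was possible with 1 library per stage.

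**Figure D4:**
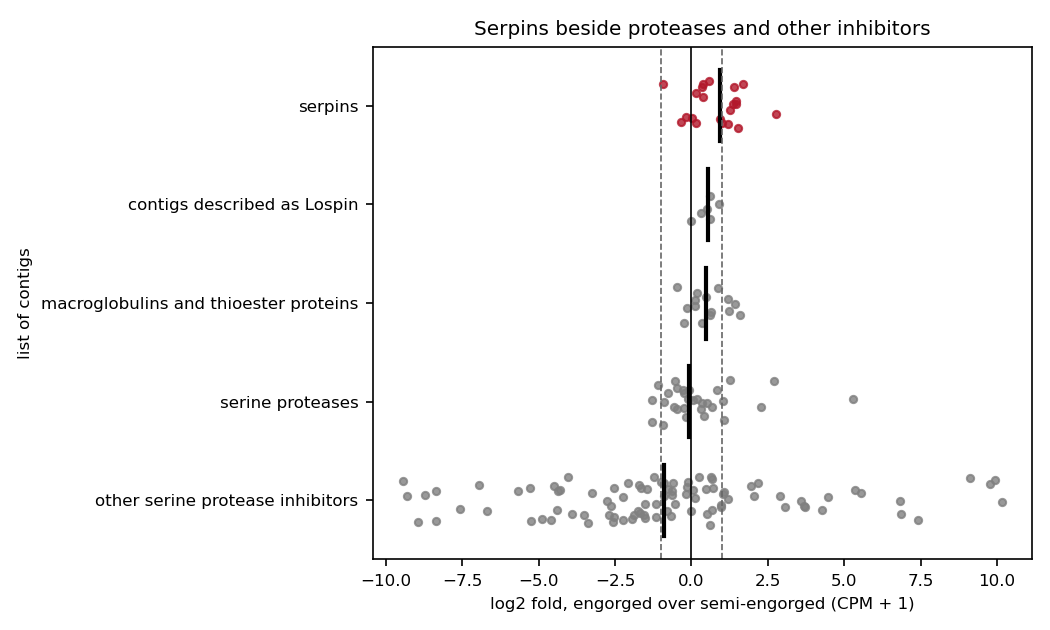
Log2 folds of CPM + 1, engorged over semi-engorged, for each tested contig of 5 lists, with a black bar at the median of each list and dashed lines at 1 and -1. Serpins lie between -0.92 and 2.76 with a median of 0.95, and the other serine protease inhibitors between -9.44 and 10.17 with a median of -0.91.

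The labelled tissue and the markers of other tissues gave these values. Contigs with salivary names, serpins left out, took 4.83% of reads in engorged and 6.53% in semi-engorged glands, with 146 of 632 higher in engorged and 326 in semi-engorged glands. Midgut and cuticle markers took 0.0338% in engorged and 0.0519% in semi-engorged glands, with 8 of 48 higher in engorged and 15 in semi-engorged glands. Muscle markers took 0.0543% in engorged and 0.0496% in semi-engorged glands, with 8 of 33 higher in engorged and 7 in semi-engorged glands. Nerve markers took 0.0896% in engorged and 0.106% in semi-engorged glands, with 1 of 10 higher in engorged and 2 in semi-engorged glands. Contigs matching host blood by word, among them contig_10745, whose best match is a tick protein, took 0.00629% of reads in engorged and 0.00359% in semi-engorged glands, with 4 of 7 higher in engorged and 0 in semi-engorged glands. Their ratio of shares was 1.75, on the same side as the serpin ratio. Contig_10745 had 1067 reads in engorged and 1276 in semi-engorged glands, a ratio of 0.781, which lowers the summed ratio. Hemoglobin subunit beta (contig_13726) had 927 in engorged and 166 in semi-engorged glands, a ratio of 5.21. The part of host blood in the serpin result was not tested.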

How the data were processed

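Per the file headers, the authors deposited a read count and an RPKM value for each assembled contig in 1 library per stage, with the best-matching protein. The counts are whole numbers, and reads over RPKM gave whole contig lengths. Per the labels' protocols, RNA was extracted with Trizol and libraries followed a TruSeq guide. The submitters' processing notes list CASAVA 1.8, TopHat and Cufflinks and do not say what each was used for. How contigs were assembled, annotated and counted is not given in the sources used here, so reads of close copies may be split between contigs.

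Counts were scaled to CPM by library total, and contigs with 20 or more reads over both libraries were kept. Log2 folds used CPM + 1. Ratios are CPM ratios with exact Clopper-Pearson 95% intervals, shares have Wilson intervals, and a count of 0 was set to 3 reads. Serpin contigs with 100 or more reads in a library were named by rule, the rest chosen as outermost or for completeness. In the other lists, the 2 most abundant contigs and the largest fold each way were eligible for naming. The members and lists were chosen with earlier results of these data known. Calculations ran in Python 3.11.15 with SciPy 1.17.1, and TMM factors came from edgeR 4.0.16. The fold and interval code was tested on simulated counts.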

Additional observations from a re-analysis of the deposited data

How the results depend on the processing

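The serpin median log2 fold stayed above 0 under every alternative run, and the ratio of shares above 1 under the alternatives of scaling, unit and members, the only ones that can change it. The count of serpin contigs at least 2-fold higher in engorged glands was 10 of 21. It was 3 with a pseudocount of 10 and 1 at a log2 fold of 2. With 1 contig per identical description it was 5 of 7 (71.4%), and with 1 contig per best-matching protein 6 of 14 (42.9%). It rose to 12 with a pseudocount of 0.1, and to 12 with 3 reads in place of 0 and nothing added. Without the 50 most abundant contigs in the totals it was 11, and with RPKM in place of counts 11 of 19. The count for semi-engorged glands was 0, and it was 1 with a pseudocount of 0.1, with 3 reads in place of 0 and nothing added to CPM, and with totals that leave out the 50 most abundant contigs. The median of 0.95 was 0.17 with a pseudocount of 10, 0.48 with 1 contig per best-matching protein, 0.60 with the Lospin contigs and 1.46 with 1 contig per identical description. The ratio of shares of 2.59 was 2.20 with the median log2 ratio set to 0, 3.02 without the 50 most abundant contigs, 2.97 with 1 contig per identical description, 2.41 without the most abundant serpin contig and 2.46 with the Lospin contigs. The Lospin contigs, the choice of 1 contig per protein and the sum without contig_47621 were added after seeing the data. Under alternatives that can change them, 98 log2 folds of single contigs were set beside the main ones. Of these, 65 moved by less than the log2 distance from the ratio to an end of its counting interval, and 33 by more. No log2 fold of a contig at least 2-fold higher changed sign. The background moved too: with a pseudocount of 10, 4.21% of all tested contigs were higher in the engorged library, against 14.3% of serpin contigs. With 0.1 it was 22.8%, against 57.1% of serpin contigs. In the semi-engorged library 31.3% of all tested contigs were higher with 0.1, and 33.5% with 3 reads in place of 0 and nothing added. It was 16.3% without the 50 most abundant contigs. No alternative stands in for a replicate, and no paired analysis was possible because each stage has 1 library.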
